A study of Oryctolagus cuniculus with 9 samples.

Results

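TPR is a single gene (ENSOCUG00000012261) among the 14870 listed for rabbit knee cartilage, and it was chosen by its symbol and by its place beside PRG4, the lubricin gene. Its low level in defects compared with healthy cartilage was already known when it was chosen, so its levels in the groups are described here without a test. New Zealand white rabbits aged 4 to 5 months received a full-thickness drilled defect in the trochlear groove of both knees. The right defect was filled with a collagen-chondroitin sulfate scaffold (CLCS) and the left one stayed empty (untreated). RNA was sequenced 12 weeks after surgery from 3 CLCS treated defects, 3 untreated defects and 3 samples of healthy cartilage. In the study's scheme healthy tissue comes from the condyle, and tissue state and site cannot be told apart in any comparison with healthy cartilage. No label names separate animals for the samples of a group, so the spread given below may be technical in part.

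TPR encodes a long coiled-coil protein of the nuclear basket, the fibrous structure on the inner face of the nuclear pore through which messenger RNA leaves the nucleus. It is a housekeeping gene of most cell types. PRG4 encodes lubricin, a mucin-like glycoprotein secreted by the chondrocytes of the cartilage surface zone and by synovial lining cells, which lowers friction between joint surfaces. In mammals the genes are read from opposite strands and run toward each other, so that their ends can meet or overlap. In the RefSeq annotation of the rabbit assembly mOryCun1.1 the span of PRG4 overlaps that of TPR, and ODR4 lies within 1000 bases of it. This is another assembly than oryCun2.0, to which the study aligned its reads.

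The tables hold 1 row with the symbol TPR and 0 with the symbol PRG4, and 3794 of their rows carry no symbol, so lubricin was not analysed here under its own name. Neither the labels nor the methods give the strand setting of the read count. Without strand, reads from the shared stretch of TPR and PRG4 cannot be told apart. In these libraries, ND6 took 86.0% to 94.4% of the reads assigned to the 13 protein genes of the mitochondrial genome, and is the one of them that is encoded on the other strand. The part of either fact in the TPR level was not tested.

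The deposited values are read counts divided by a size factor of the library, called normalized reads here, and the whole reads behind them could be recovered. TPR had 10079, 11591 and 10391 reads in healthy replicates 1, 2 and 3, which equal 9497, 11763 and 9388 normalized reads. In the untreated defects it had 342, 1138 and 428 reads, or 269, 1138 and 388 normalized reads. In the CLCS treated defects it had 634, 3765 and 1346 reads, or 655, 3705 and 1676 normalized reads. All healthy libraries lay above all libraries from defects, while the untreated and CLCS libraries overlapped. Replicate 2 was the highest library in each of the 3 groups, and replicate 1 the lowest in both defect groups.

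**Figure D1:**
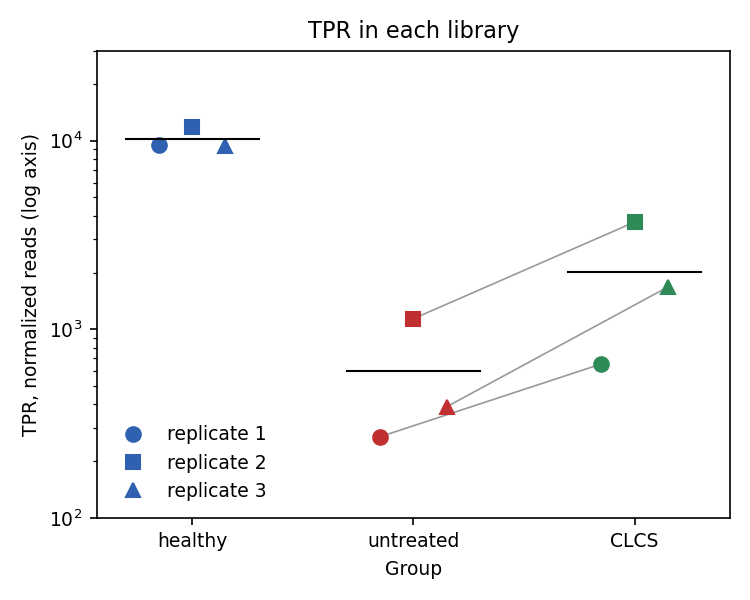
Normalized reads of TPR (vertical log axis) in each library of the 3 groups, with one marker shape per replicate number, a black bar for the group mean of 3 libraries and grey lines between untreated and CLCS libraries of equal number. The healthy libraries sit between 9388 and 11763, the untreated ones between 269 and 1138 and the CLCS ones between 655 and 3705, and each grey line rises.

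The mean level was 10216 ± 1341 normalized reads (SD, n = 3) in healthy cartilage, 599 ± 471 in untreated and 2012 ± 1552 in CLCS treated defects. The untreated mean was 5.86% and the CLCS mean 19.7% of the healthy mean. The lowest healthy library was 8.25-fold above the highest untreated library and 2.53-fold above the highest CLCS library. TPR was also more even in healthy cartilage, where the highest library was 1.25-fold above the lowest, than in untreated (4.22-fold) or CLCS treated defects (5.66-fold). In order of level, healthy cartilage stood apart from both other groups, and the libraries of CLCS and untreated defects overlapped, although the CLCS library was the higher one within each replicate number.

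As a share of the reads summed over the genes of the table, which is far less than the reads the study sequenced, TPR held 1.34%, 1.23% and 1.13% of the healthy libraries, 0.0374%, 0.142% and 0.0590% of the untreated libraries and 0.0813%, 0.393% and 0.110% of the CLCS libraries. The widest relative interval from counting was that of untreated replicate 1, 0.0335% to 0.0415% (exact Clopper-Pearson, 95%). Such intervals cover counting error only, and the libraries of a defect group differed by far more. A gene without a symbol, ENSOCUG00000023467, took 1.49% of the reads in the library where it was lowest and 49.4% where it was highest. With its reads left out of the total, the share of TPR was 1.53% to 1.71% in healthy, 0.0488% to 0.173% in untreated and 0.102% to 0.573% in CLCS libraries, and the order of the groups was as before.

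In the library with the most TPR reads for its total, healthy replicate 1, only 7 genes had more reads, and TPR was 8th of 9894 genes with a read. It was 9th and 10th in the other healthy libraries, 92nd to 273rd in untreated and 23rd to 147th in CLCS libraries. These places count reads, which also grow with the length of a transcript, so they describe the libraries and not the order of expression levels.

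The log2 fold change fitted by limma on log2 of normalized reads plus 1 was -4.37 (SE 0.53) in untreated and -2.67 (SE 0.58) in CLCS treated defects against healthy cartilage. Both comparisons use the same 3 healthy libraries. The first was the 2nd lowest of 3496 genes tested, and the second the 13th lowest of 3294. The study's own DESeq2 lists also give TPR as lower than in healthy cartilage in both defect groups. Since TPR was chosen with this fall known, its place among the genes may follow in part from the choice, and no p-value is attached. For scale, an adjusted p under 0.05 with a lower level was reached by 1.2% of the genes tested in untreated and 1.03% in CLCS treated defects. Non-overlapping libraries with the defects below healthy cartilage, as seen for TPR, were found for 10.7% and 12% of the tested genes. Without 1 library at a time the difference stayed between -4.97 and -3.93 for untreated and between -3.28 and -2.03 for CLCS treated defects. The last value is that without CLCS replicate 1, and -3.28 is that without CLCS replicate 2.

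CLCS treated and untreated defects are also given as a description, since both groups of libraries are among those TPR was chosen on. The log2 fold change of TPR was 1.70 (SE 0.74), a 3.24-fold higher level in CLCS treated defects. This was the 16th highest fold change of the 3275 genes tested. In this comparison 0% of the genes were called by limma, with 95 (2.9%) at an unadjusted p under 0.05, and edgeR and DESeq2 also called 0. The TPR libraries overlapped between the groups, whereas for 3.82% of the tested genes all CLCS libraries lay above all untreated ones and for 4.52% all lay below. The log2 fold change was 1.09 without CLCS replicate 2 and 2.34 without CLCS replicate 1, the lowest and highest values when 1 library was left out.

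Libraries of equal number in these groups tended to deviate from their group means in the same direction across genes (Pearson correlation 0.25, 0.33 and 0.30). The values were 0.28, 0.14 and 0.19 for CLCS with healthy libraries and 0.29, 0.13 and -0.04 for untreated with healthy ones. The correlation thus does not single out the defect groups, and no label ties the numbers to rabbits. Under the assumption that they pair, the libraries were also set side by side. TPR was 2.43-fold higher in CLCS replicate 1 than in untreated replicate 1, 3.26-fold higher in replicate 2 and 4.32-fold higher in replicate 3. All 3 pairs thus ran in one direction, with folds closer to each other than the libraries within a group.

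The genes around TPR were read next, since the same stretch of chromosome could share its level. Within 500 kb of TPR in mOryCun1.1, rows with a matching symbol were found for HMCN1, PDC, PTGS2 and PLA2G4A. HMCN1, a large matrix protein of the fibulin family, had 8, 9 and 16 reads in healthy, 0, 3 and 2 in untreated and 0, 5 and 2 in CLCS libraries. PTGS2, the inducible cyclooxygenase that makes prostaglandins in inflamed joints, had at most 5 reads in any library. PDC, a photoreceptor phosphoprotein, had at most 4. PLA2G4A, the phospholipase that releases arachidonic acid for PTGS2, had 0, 12 and 3 reads in healthy libraries and at most 1 read in any library from a defect. None of the 4 had enough reads to be tested. Every one of them lay far below the 342 reads that TPR had in its lowest library.

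**Figure D2:**
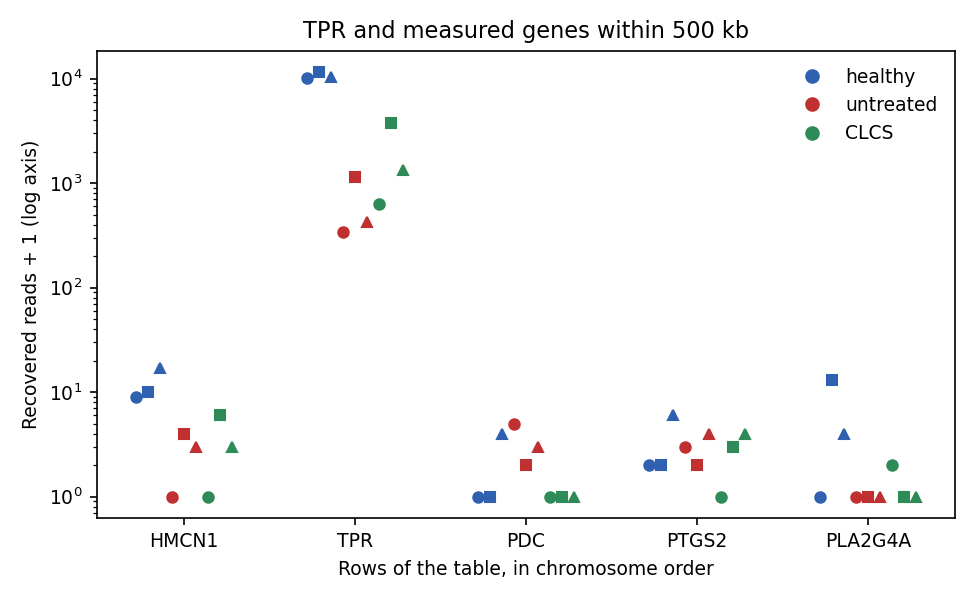
Recovered reads plus 1 (vertical log axis) of TPR and of the 4 other genes within 500 kb that have a row, in chromosome order, for each of the 9 libraries, coloured by group. TPR has between 342 and 11591 reads, and none of the other 4 exceeds 16.

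A list of 14 symbols from the wider neighbourhood of the locus in mammals, written for this report, had 10 rows, of which 9 never exceeded 40 reads. Only IVNS1ABP, an actin-binding kelch protein, and TRMT1L, an RNA methyltransferase-like protein, were tested. IVNS1ABP had 62, 47 and 24 reads in healthy, 30, 15 and 8 in untreated and 14, 8 and 17 in CLCS libraries. TRMT1L had 34, 22 and 34, then 26, 14 and 15, and then 10, 17 and 20 reads. Neither was called in any comparison. Of all tested genes, 2.55% were called in untreated and 3.16% in CLCS treated defects against healthy cartilage, and 0% between the defect groups. The lack of a call for 2 genes is therefore no result about them. Their log2 fold changes were -1.44 and -0.79 in untreated and -1.48 and -0.74 in CLCS treated defects against healthy cartilage, with adjusted p between 0.162 and 0.353 from limma.

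TPR works in the nuclear pore together with the other nucleoporins, and 26 rows carried one of the 33 symbols listed for them. Their reads were of another order than those of TPR: 24 of the 26 never exceeded 40 reads in a library, and the highest count of any was 189. NUP153 and NUP50, which like TPR are proteins of the nuclear basket, had 3 to 9 and 3 to 8 reads per library and were too low to be tested. ZC3HC1, also of the basket, had 18 to 40 reads per library. It was not called in any of the 3 comparisons, where 2.55%, 3.16% and 0% of all tested genes were called. NUP85, of the outer ring of the pore, had 94, 189 and 167 reads in healthy, 168, 80 and 99 in untreated and 107, 101 and 91 in CLCS libraries. SEC13, also of the outer ring and of vesicle coats, had 81, 91 and 122, then 108, 63 and 98, and then 92, 87 and 87 reads. For both genes the groups overlapped, and their log2 fold changes against healthy cartilage lay between -0.47 and 0.06.

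In untreated defects, 0 of the 4 nucleoporins tested were called, where 2.55% of all tested genes were called in either direction, and their median log2 fold change was -0.35 beside -0.02 over all genes tested. In CLCS treated defects, 3 nucleoporins reached the minimum of the filter on low counts in all 6 libraries, and 0 of them were called, where 3.16% of all tested genes were called, 1.03% lower and 2.13% higher. With so few genes these counts say little about the group. NUP54, a subunit of the central channel, reached that minimum in the healthy libraries alone, so that it could enter the test only as a gene lower in the defect, and it is given without a test. The study's own DESeq2 lists give NUP54 as lower than in healthy cartilage in both defect groups. It had 16, 11 and 23 reads in healthy, 3, 1 and 0 in untreated and 1, 0 and 3 in CLCS libraries. Over the summed reads it was 13.4-fold lower in untreated and 11.05-fold lower in CLCS treated than in healthy samples. These folds pool the libraries of a group and are a description only.

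Receptors and cofactors of nuclear transport gave a like picture, with 22 rows for 26 symbols and 21 of them never above 40 reads. The exception was KPNA1, an importin that carries proteins into the nucleus. It had 4263, 2287 and 10609 reads in healthy, 1615, 1097 and 1890 in untreated and 1412, 1228 and 3620 in CLCS libraries. Its healthy libraries lay above the untreated ones and overlapped with the CLCS ones. It did not pass the limma test in untreated (log2 fold change -1.74, SE 0.53, adjusted p = 0.148) or in CLCS treated defects (-1.16, SE 0.66, adjusted p = 0.415). The study's own DESeq2 lists give KPNA1 as lower than in healthy cartilage in both defect groups. CSE1L, which returns importins to the cytoplasm, and RANBP1, a cofactor of the Ran cycle, had 5 to 31 and 14 to 35 reads per library. By limma, none of the 3 tested genes was called against healthy cartilage or between the defect groups, where the shares of all genes called were 2.55%, 3.16% and 0%.

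**Figure D3:**
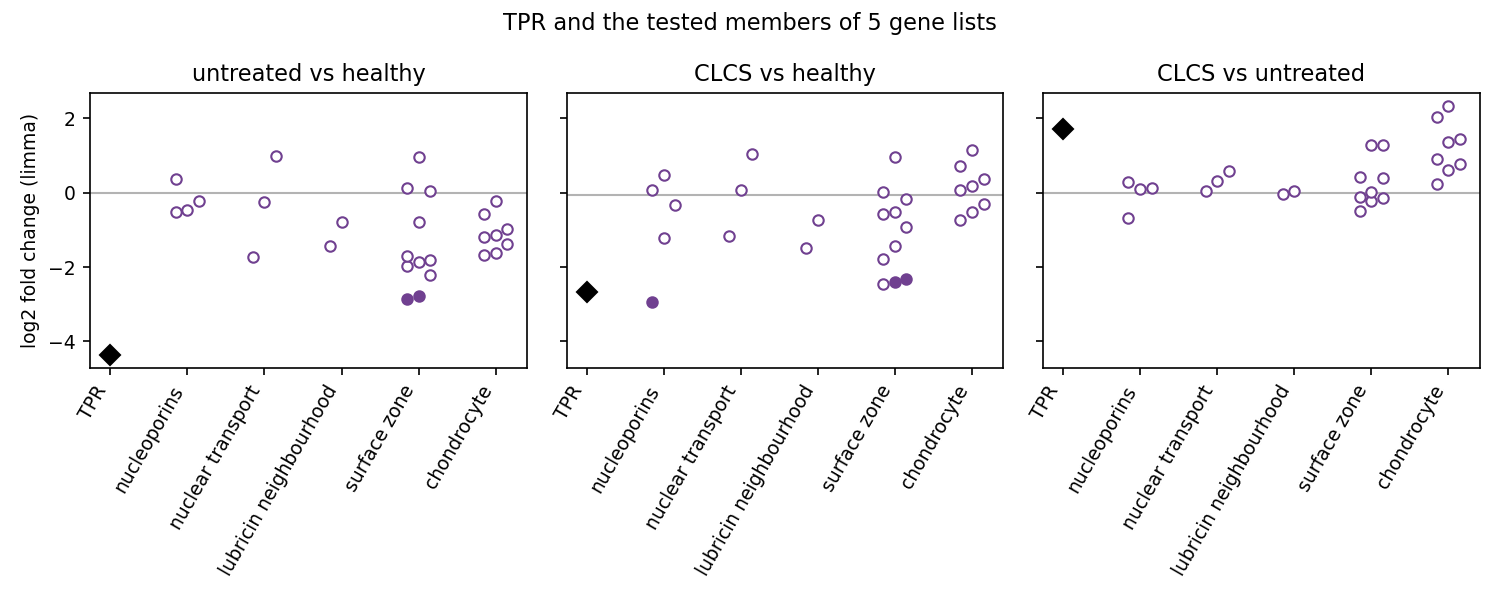
Log2 fold change fitted by limma (vertical axis) of TPR (black diamond) and of the tested members of 5 gene lists (circles, filled where the adjusted p is under 0.05, including GREM1 and NUP54, which entered the test through the healthy libraries alone), in untreated against healthy, CLCS against healthy and CLCS against untreated samples. The grey line is the median of all genes tested, and TPR lies at -4.37, -2.67 and 1.70. In the first comparison TPR lies below every tested nucleoporin, but NUP54 was not tested there. In the second, NUP54 (-2.93) lies below TPR.

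The surface zone of cartilage, where lubricin is made, was described by 28 genes known from that zone, from lubrication or from neighbouring layers, and 23 of them had a row. In each comparison with healthy cartilage, 11 of them were tested and 6 reached the minimum of the filter in all 6 libraries. Of these 6, 1 was called lower and 0 were called higher in untreated and in CLCS treated defects, where 1.2% and 1.03% of all tested genes were called lower and 1.34% and 2.13% higher. The gene was CILP both times. CILP, a matrix protein that binds TGF-beta and is named for the intermediate layer of cartilage rather than its surface, had 1414, 624 and 483 reads in healthy, 151, 145 and 71 in untreated and 112, 154 and 114 in CLCS libraries. By limma its log2 fold change in untreated defects was -2.78 ± 0.50 (SE) with an adjusted p = 0.0381, and in CLCS treated defects -2.39 ± 0.43 (SE) with an adjusted p = 0.0361. GREM1, a secreted inhibitor of BMP signals, had 13, 18 and 16 reads in healthy, 3, 2 and 0 in untreated and 2, 2 and 2 in CLCS libraries. It reached the minimum of the filter in the healthy libraries alone and is given without a test. The study's own DESeq2 lists give GREM1 as lower in untreated defects only. Over the summed reads it was 10.1-fold lower in untreated and 6.92-fold lower in CLCS treated defects. These folds pool the libraries of a group and are a description only. For CILP all libraries from defects lay below the healthy ones. Among all tested genes this held for 10.7% in untreated and 12% in CLCS treated defects. The same order of the GREM1 libraries follows from its entry through the healthy ones and is no result. When single libraries were dropped, 0 of 6 fits called CILP in either comparison (adjusted p 0.0541 to 0.163 from limma).

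The other tested genes of the list that reached the minimum in all 6 libraries did not pass the limma test. The study's own DESeq2 lists give CLU, DCN, THBS4 and FMOD as lower in untreated defects. Of these, CLU and DCN are also listed as lower in CLCS treated defects, and VCAM1 is in neither list. CLU, an extracellular chaperone of surface chondrocytes, had 797, 71 and 177 reads in healthy, 56, 25 and 136 in untreated and 43, 22 and 41 in CLCS libraries, and its untreated and healthy libraries overlapped. The median log2 fold change of these 6 genes, CILP among them, was -1.91 in untreated and -1.19 in CLCS treated defects, beside -0.02 and -0.08 over all genes tested. Between the defect groups, 0 of 9 tested genes of the list were called, where 0% of all tested genes were called, so that this count is no result about them. CILP had a log2 fold change of 0.38 (SE 0.36) there. EGFR, FOXO3 and CD44 had at most 5 reads in any library.

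Because the samples are pieces of tissue, fewer cells of a type and less RNA per cell cannot be told apart. Markers of chondrocytes were therefore summed in every library, 13 of the 18 symbols having a row, with COL2A1 and ACAN, the main collagen and proteoglycan of cartilage, among them. The sum was 10888, 9888 and 8258 normalized reads in healthy, 10048, 5122 and 782 in untreated and 10061, 10879 and 28146 in CLCS libraries. COL2A1 made up most of this sum in every library, with 458 of 782 in untreated replicate 3. Untreated replicate 1, with the lowest TPR level of all, had 8816 normalized reads of COL2A1, above the healthy libraries at 6874 to 8610. It had 280 of ACAN (healthy 307 to 574), 175 of COL11A1 (205 to 325) and 21.3 of HAPLN1 (31.5 to 40.5), each below them. COL9A1 (95.3, healthy 17.9 to 97.6), COL9A2 (174, 166 to 474), COL11A2 (429, 348 to 1065) and LECT1 (49.6, 47.1 to 63.2) lay within the healthy range. The part of the chondrocyte content in the TPR level was not tested. Of the 8 tested chondrocyte genes, 0 were called in any of the 3 comparisons, where 2.55%, 3.16% and 0% of all genes were called, so that a count of 0 is no result about them. Their median log2 fold change was -1.17 in untreated and 0.13 in CLCS treated defects against healthy cartilage and 1.13 between the defect groups. UCMA and MATN1, markers of immature or non-articular cartilage, had at most 3 reads.

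Several sums of markers of other cell types were higher in the defects, where TPR was lower. The summed level of 10 synovial fibroblast markers, COL1A1 and COL3A1 among them, was 486 to 595 normalized reads in healthy, 983 to 3895 in untreated and 1722 to 3228 in CLCS libraries, so no library from a defect was within the healthy range. COL1A1 and COL3A1, which fibroblasts of many tissues and bone cells also make, held most of each sum. COL1A1 was 36.1 to 247 in healthy and 795 to 2052 in defect libraries, while COL3A1 in untreated replicate 2 (79.0) was below the healthy libraries (226 to 389). PDPN, a marker of synovial lining cells, ran the other way, with 18.1 to 46.2 in healthy, 3.00 to 12.7 in untreated and 1.03 to 7.87 in CLCS libraries. The sum of 7 osteoblast markers ranged from 310 to 921, from 985 to 2992 and from 1865 to 2434, and that of 6 osteoclast markers from 6.32 to 34.9, from 67.1 to 163 and from 46.1 to 162. The 11 monocyte and macrophage markers summed to 58.9 to 69.7, 69.0 to 279 and 93.4 to 108, with the highest value in untreated replicate 3 and an overlap of the healthy and untreated ranges. Endothelial markers stayed at or below 14.5 and erythroid markers at or below 9.03 in every library. Adipocyte markers summed to 21.3 to 33.4, 30.8 to 33.9 and 35.4 to 46.5, and skeletal muscle markers to 24.5 to 52.4, 16.3 to 20.5 and 15.7 to 27.4. MMP3, the stromelysin of synovial lining cells, had at most 3 reads in every library. The part of these cell types in the TPR level was not tested.

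**Figure D4:**
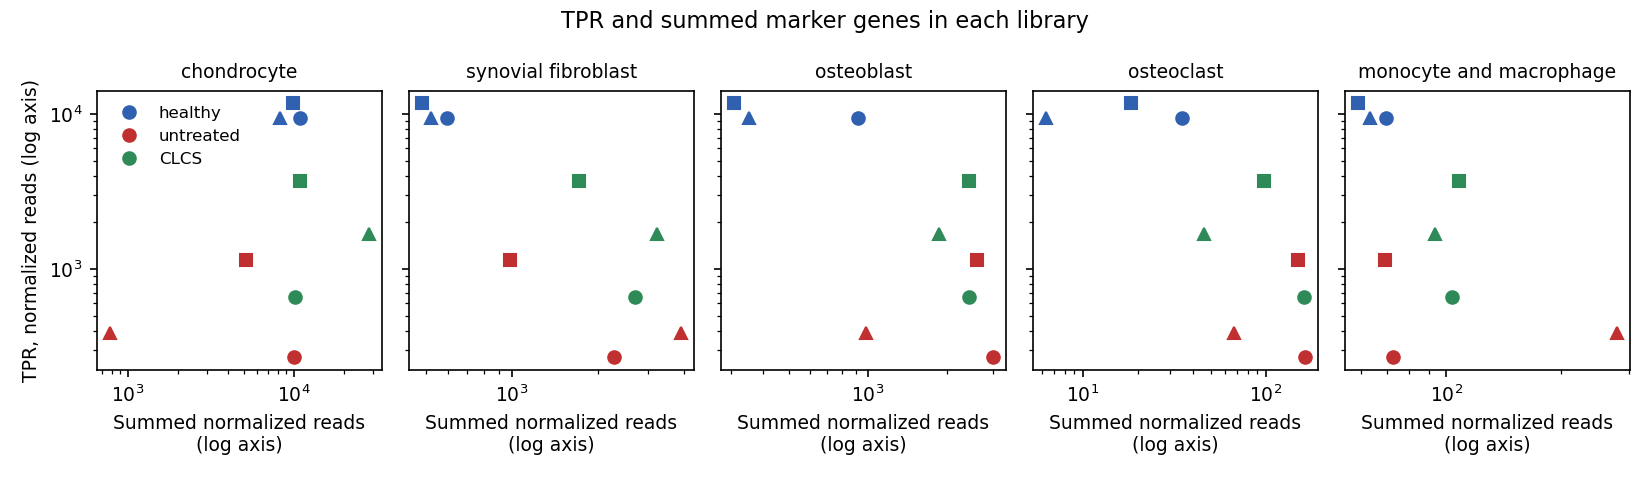
Normalized reads of TPR (vertical log axis) against the summed normalized reads of the markers of 5 cell types (horizontal log axes), one point per library, with colour for the group and shape for the replicate number. Healthy libraries lie at the top left of the synovial fibroblast panel, where their sums are 486 to 595, while in the chondrocyte panel the lowest TPR point, untreated replicate 1, lies at a sum of 10048.

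The genes whose level ran most like that of TPR were named from the Pearson correlation of log2 normalized reads plus 1 over the 9 libraries, among 3811 genes with enough reads. It describes likeness only, since the libraries fall into groups and the healthy ones set most of it. The 10 genes with the highest values, from 0.92 to 0.96, were TSEN15, NPY1R, ENSOCUG00000011567, HSF4, SSH3, PLEKHH3, ENSOCUG00000027187, NUDT6, KIAA1549 and ENSOCUG00000005327, and the median of all genes was 0.01. TSEN15, a subunit of the transfer RNA splicing endonuclease, is on the same chromosome as TPR in mOryCun1.1. It had 22, 17 and 18 reads in healthy, 2, 7 and 5 in untreated and 3, 14 and 6 in CLCS libraries, so replicate 2 was highest in both defect groups, as for TPR. TSEN15 was picked for likeness with TPR, so this order follows in part from the choice.

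Of these genes, 3 had more than 1000 reads in at least 1 library. NUDT6, a hydrolase gene whose span overlaps that of FGF2 in mOryCun1.1, had 2468, 5169 and 2996 reads in healthy, 311, 624 and 110 in untreated and 218, 604 and 237 in CLCS libraries. ENSOCUG00000005327 had 4753, 3801 and 7091, then 130, 77 and 113, and then 158, 371 and 290 reads. ENSOCUG00000027187 had 1683, 894 and 386, then 73, 78 and 84, and then 79, 317 and 173 reads. In all 3 the healthy libraries were above every library from a defect, and in the last 2 all CLCS libraries were above all untreated ones in normalized reads. The genes were picked for likeness with TPR over these libraries, so this order follows in part from the choice. Among all tested genes, 10.7% in untreated and 12% in CLCS treated defects lay below healthy cartilage without overlap. For 3.82% all CLCS libraries lay above all untreated ones. The table gives no symbol for the last 2 genes.

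**Figure D5:**
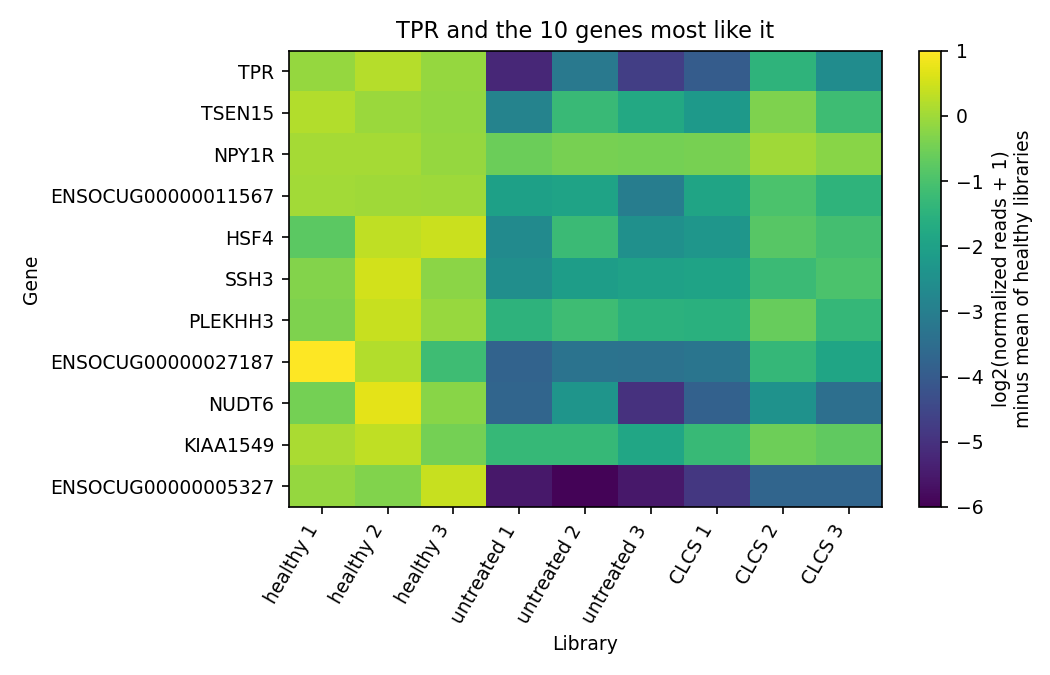
Level of TPR and of the 10 genes with the highest correlation with it, as log2 of normalized reads plus 1 minus the mean of the healthy libraries (colour scale), in each of the 9 libraries. The 6 libraries from defects are darker than the healthy ones for every gene but NPY1R, where CLCS replicate 2 lies within the healthy range, and the darkest cells are those of ENSOCUG00000005327.

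When the mean of each group was taken out first, TSEN15 was again among the 5 most alike, with a correlation of 0.93 over the 9 libraries. The others were ENSOCUG00000001314, TRIML1, NUBP1 and ENSOCUG00000005789, from 0.93 to 0.96. ENSOCUG00000001314 had 19, 31 and 23 reads in healthy, 11, 33 and 19 in untreated and 3, 30 and 12 in CLCS libraries. These 4 had at most 40 reads per library and were highest in replicate 2 of each group. They were picked for running like TPR within groups, so this order follows from the choice.

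An overlap with another gene, as between TPR and PRG4, was common among the genes of the table. Of the 2685 tested genes with a single match by symbol to a protein-coding gene of mOryCun1.1, 27.7% overlapped the span of another protein-coding gene in untreated against healthy samples. Among the genes called lower there the share was 31.2% (10 of 32), and among those called higher 36.8% (14 of 38). In CLCS against healthy samples the shares were 27.8% of all tested, 37.0% of those called lower (10 of 27) and 38.9% of those called higher (21 of 54). These shares are a description of spans in another assembly and were not tested.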

How the data were processed

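RNA sequencing of 9 rabbit cartilage libraries was read from both deposited tables, whose healthy columns are identical and were used once. Each deposited value is a normalized signal. The authors aligned reads of polyA-selected RNA with TopHat (Bowtie) to oryCun2.0, disregarded multiple alignments, took gene counts from eXpress and divided them by DESeq2 size factors. Versions, the annotation release and the strand setting are not given in the sources used here. Dividing each column by its step gave whole reads for 100% of values (tolerance 0.01). Reads summed over the genes of the table were 724986 to 1226408 per library. This is far below the aligned read pairs the study lists, the reason is not given in the sources used here, and shares of reads refer to these sums.

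Groups were compared by pairs in R 4.3.3 with limma 3.58.1, two-sided, after adding 1 to deposited values and taking log2, for genes kept by filterByExpr of edgeR 4.0.16, with Benjamini-Hochberg adjustment over all of them where an adjusted p under 0.05 counted as a call. The design assumed counts or such values and named this test for the latter. Alternatives were edgeR with TMM and DESeq2 1.42.0 on recovered reads, other pseudocounts, no filter, TMM scaling, all libraries in one fit, the replicate block and leaving out each library. The alternatives for CILP, GREM1 and NUP54 were added after seeing the data. No p-value is given for TPR, since it was chosen on these libraries, although the design named one for CLCS against untreated samples. The pipeline was tested on simulated data. TPR and the lists were chosen with earlier results of these data known. Genes were named by a rule: TPR, rows within 500 kb of it, the 10 genes most correlated with it and the 5 within groups, NUP153 and NUP50, and from each list the called members, filled up to 3 by reads. Single genes were also named where a statement turned on them (MMP3, UCMA, MATN1, EGFR, FOXO3, CD44, DCN, THBS4, FMOD, VCAM1, COL11A1, HAPLN1, COL9A1, COL9A2, LECT1), chosen after their values were seen. Symbols were matched once to RefSeq (mOryCun1.1) for 10307 of 11076 genes. Sequences of TPR and PRG4 were not used here.

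Equal replicate numbers were taken, by assumption, to pair CLCS with untreated libraries, since no label ties the numbers to rabbits. The Pearson correlation across genes of their deviations from group means was 0.25, 0.33 and 0.30, and 0.28, 0.14 and 0.19 for CLCS with healthy libraries. It was 0.29, 0.13 and -0.04 for untreated with healthy libraries, which were not taken as pairs.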

Additional observations from a re-analysis of the deposited data

How the results depend on the processing

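The direction of the TPR difference was the same in all 42 alternatives over the 3 comparisons. Against healthy cartilage it could hardly turn, since all healthy libraries lay above all libraries from defects. TPR was also chosen with this fall known, so the same direction there is no support for it. When 1 library was left out, TPR ranged from -4.97 to -3.93 in untreated against healthy, from -3.28 to -2.03 in CLCS against healthy and from 1.09 to 2.34 in CLCS against untreated samples. The number of genes called over the table, 89, 104 and 0 in these comparisons, moved more. DESeq2 called 275 and 243 genes in the first 2, and without a filter on low values 20 and 13 were called. With all 9 libraries in one fit 173 were called in untreated against healthy samples. Leaving out 1 library gave 1 to 9 genes in untreated against healthy, 0 to 75 in CLCS against healthy and 0 in CLCS against untreated samples, and the 0 in the second came without CLCS replicate 1 or 3. The cause was not tested. With the replicate block, 94, 125 and 0 genes were called, and the block changed no call of CILP, GREM1 or NUP54. Calls of these 3 genes, of which GREM1 and NUP54 entered the test through the healthy libraries alone, were lost in 37 of 70 alternatives, leaving out 1 library among them, and none turned its direction. A gene of few reads such as NUP54 depends on the pseudocount: its log2 fold change was -3.41 with a pseudocount of 0.5, where it was no longer called, and -1.66 with one of 5. Depth limits the nucleoporins, most of which had too few reads to be tested.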
